A study of Rattus norvegicus with 4 samples.

Results

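The set described here is 113 rat genes that were far brighter on the array of FSH-treated granulosa cells carrying FOXOA3-mDBD than on any other array of the study. Its members were chosen by their signals on the same 4 arrays: a gene entered if its signal with FOXOA3-mDBD and FSH was at least 5 times that on each of the other 3 arrays. Signals below a floor of 100.5, the median signal of the rat probe sets pooled over the arrays, were first raised to it. Each gene was read by its brightest probe set, and the platform annotation gave exactly 1 symbol for the probe sets of 14217 genes. The folds alone kept 123 genes, 0.865% of the 14217, and 10 of these were left out because the rule drops Hey1 and symbols that begin with Slc, Arhg, Mmp or Adam (Hey1, Slc39a6, Slc39a8, Arhgap24, Slc4a4, Slc20a2, Slc30a10, Adamtsl1, Slc35d3 and Mmp10). Since the folds on the FOXOA3-mDBD FSH array made the set, they are given below as a description and no test was run on them.

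Primary granulosa cells, the somatic cells that surround the oocyte and make estrogen, came from immature Sprague-Dawley females aged 23 to 25 days that had received estradiol. Infection with an adenovirus lasted 4 h, and culture with or without follicle-stimulating hormone (FSH) followed for 24 h. The FOXOA3-mDBD FSH group carried the DNA-binding mutant of active FOXO1 and received FSH at 100 ng/ml, the FOXOA3 FSH group carried constitutively active FOXO1 and received the same FSH, the GFP FSH group carried the green fluorescent protein control virus with FSH, and the GFP vehicle group carried that control virus without FSH. Each group was 1 array, all 4 were infected with a virus, and no array held uninfected cells or FOXOA3-mDBD without FSH. The labels do not say how many cultures or rats an array stands for. Without replicate arrays, no difference below has an error or a p-value. Signals are MAS5 intensities in arbitrary units, and on cells in bulk a change in the number of cells of a type cannot be told apart from a change in RNA per cell.

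FOXO1 is a forkhead transcription factor that binds DNA through its forkhead domain and is pushed out of the nucleus when AKT phosphorylates it, a step that FSH and insulin-like growth factors promote in granulosa cells. The constitutively active form escapes this control, and the DNA-binding mutant is used to ask which effects need contact between the factor and its sites on DNA. Forkhead proteins also act through partner proteins without contacting DNA themselves. Sciellin, Ranbp17 and Foxq1 mark the set: sciellin (Scel) is a precursor protein of the cornified envelope of keratinocytes, Ranbp17 belongs to the importin beta superfamily of nuclear transport receptors, and Foxq1 is itself a forkhead factor that acts in hair follicle and epithelial cells.

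Several values of the arrays themselves differed and belong beside all that follows. Between 47.9% and 52.8% of the rat probe sets were above the floor on an array. For the probe sets of the bacterial control transcripts dap, lys, phe and thr, the geometric mean signal was 539 on FOXOA3-mDBD FSH, against 22.6 on FOXOA3 FSH, 395 on GFP FSH and 21.4 on GFP vehicle. GAPDH, read with probe sets at both ends of the transcript as a sign of RNA integrity, gave a 3' over 5' ratio of 3.15 on FOXOA3-mDBD FSH, against 2.84 on FOXOA3 FSH, 2.46 on GFP FSH and 2.32 on GFP vehicle. The same ratio for beta-actin was 10.7 on FOXOA3-mDBD FSH, against 9.79 on FOXOA3 FSH, 12.0 on GFP FSH and 5.15 on GFP vehicle. The FOXOA3-mDBD FSH array was highest by GAPDH and GFP FSH by actin, and GFP vehicle was lowest by both. The part of these differences in the set was not tested.

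The marker genes stood far apart from the other arrays. Scel had a signal of 15268 on FOXOA3-mDBD FSH, 451 on FOXOA3 FSH, 3.0 on GFP FSH and 2.7 on GFP vehicle. It was low but above the floor with FOXOA3 and below it on both GFP arrays, so the gene was 33.8-fold brighter with FOXOA3-mDBD than with FOXOA3 and at least 152-fold brighter than with GFP and FSH. Ranbp17 had 9745 on FOXOA3-mDBD FSH, 168 on FOXOA3 FSH, 97.3 on GFP FSH and 98.2 on GFP vehicle, which made it the member with the highest smallest fold, 58.0, the fold against its brightest other array. Foxq1 had 3591 on FOXOA3-mDBD FSH, 4.9 on FOXOA3 FSH, 1.7 on GFP FSH and 20.4 on GFP vehicle. It was below the floor on all but 1 array and at least 35.7-fold brighter on FOXOA3-mDBD FSH. Over the set, the signal on FOXOA3-mDBD FSH ran from 522 for Eomes to 22972 for Spp1 with a median of 2394, and the median smallest fold was 7.06. Of the 113 members, 36 had a smallest fold of 10 or more and 16 of 20 or more.

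**Figure D1:**
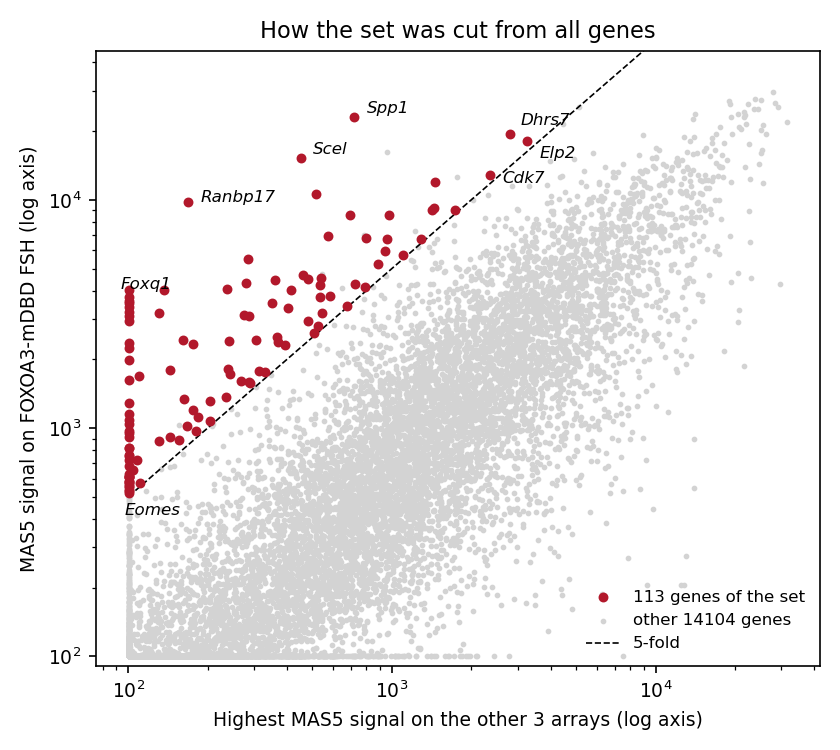
Signal of each of 14217 genes on FOXOA3-mDBD FSH (vertical log axis) against its highest signal on the other 3 arrays (horizontal log axis), signals below the floor of 100.5 drawn at it. Red points are the 113 members, which lie on or above the dashed 5-fold line by construction, and grey points above that line are the 10 genes left out by name; the column of red points at the left edge is the 38 members below the floor everywhere else.

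The name of the set, genes bright only with the DNA-binding mutant, held in the strict sense for 38 of the 113 members, which were below the floor on the other 3 arrays. Another 16 were above the floor on 1 other array, 17 on 2 and 42 on all 3. The set thus runs from genes below the floor elsewhere to broadly expressed genes such as Cdk7 and Elp2. Foxq1, the sodium channel Scn1a and the dopamine receptor Drd4 are among the former. The floor is a median signal and not a detection call. Just inside the threshold were Kcnk2 with a smallest fold of 5.04, Esm1 with 5.14 and Ccrl2 with 5.15. Just outside it were Cmtm6 with 4.97, Fermt3 with 4.97 and Mafa with 4.95. Cmtm6 had 25573 on FOXOA3-mDBD FSH, 5145 on FOXOA3 FSH, 3769.5 on GFP FSH and 3291 on GFP vehicle, a FOXOA3-mDBD FSH signal above that of any member. Fermt3 had 663 on FOXOA3-mDBD FSH, 73.7 on FOXOA3 FSH, 133 on GFP FSH and 31.7 on GFP vehicle. Mafa had 1513 on FOXOA3-mDBD FSH, 305 on FOXOA3 FSH, 68.2 on GFP FSH and 142 on GFP vehicle. When the same folds were asked of the other arrays, before any names were left out, 23 genes (0.162%) were 5-fold brighter on FOXOA3 FSH than on each other array, 14 (0.0985%) on GFP FSH and 13 (0.0914%) on GFP vehicle.

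**Figure D2:**
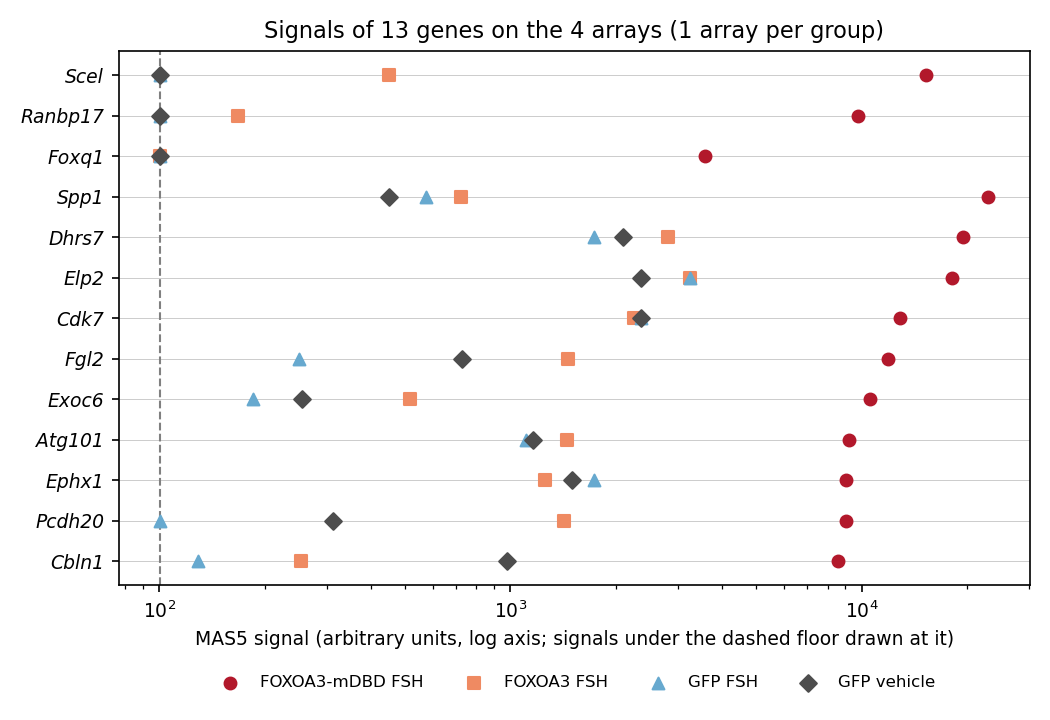
MAS5 signals (log axis) of Scel, Ranbp17, Foxq1 and the 10 other members with the highest FOXOA3-mDBD FSH signal, 1 symbol per array, with signals below the floor of 100.5 drawn on the dashed line, where symbols overlap. In every row the FOXOA3-mDBD FSH array lies alone at the right, at 3591 or more, and the other 3 arrays lie at 3254 or less.

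A small group of 6 members, formed by known role after their values were seen, held genes of the cornified envelope, junctions and epithelial shape. Besides Scel, it held trichohyalin (Tchh), a scaffold protein of the inner root sheath of hair, with 3408 on FOXOA3-mDBD FSH and below the floor elsewhere, at least 33.9-fold. Loricrin, the main protein of the cornified envelope, had 4039.7 on FOXOA3-mDBD FSH, 414 on FOXOA3 FSH, 25.2 on GFP FSH and 33.1 on GFP vehicle. Perp, a desmosomal membrane protein, had 3206 on FOXOA3-mDBD FSH, 131 on FOXOA3 FSH, 53.1 on GFP FSH and 91.2 on GFP vehicle. Both followed the order seen for Scel, with FOXOA3 FSH second and both GFP arrays below the floor. Shroom3, which drives apical constriction of epithelial cells, had 2394 on FOXOA3-mDBD FSH, 369 on FOXOA3 FSH, 70.0 on GFP FSH and 159 on GFP vehicle. The connexin Gjc1, a gap junction protein, differed from the other 5 in that it was above the floor everywhere, with 4480.3 on FOXOA3-mDBD FSH, 463 on FOXOA3 FSH, 431 on GFP FSH and 482 on GFP vehicle, so its other 3 arrays were nearly level.

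The promoters of members were searched for 4 short motifs on both strands, as a description of sequence the rule did not use. RefSeq promoter windows of build GRCr8, from 250 bases before to 50 after the start of a gene, were matched by gene ID for 88 of the 113 members and for 11700 genes on the array. The motif TGANTCA covers the AP-1 site TGA(C/G)TCA of FOS and JUN proteins but leaves its middle base open. It was present for 9 of 88 members (10.2%) and 5.99% of all genes. The 9 were Scel, Loricrin, Tchh and Perp of the cornified envelope, junction and shape group, along with Prdm1, Ephx1, Slfn4, Ypel4 and Prkcel1. That group was made after its values were seen, and the share over other epithelial genes was not counted. The forkhead motif GTAAACA was present for 1 of 88 members (1.14%), Prdm1, and for 2.71% of all genes. The nuclear receptor motif AAGGTCA was found for 4 members (4.55%, against 3.45% of all genes): Ranbp17, Ephx1, Fgf9 and Gas2. The E-box CACGTG was found for 6 (6.82%, against 9.38%): Bhlhe41, Cadps2, Cdk7, Cpeb1, Glmn and LOC102555644. A match in these windows is a run of letters and not a measured binding site.

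The windows of the 4 epithelial members with TGANTCA are shown with those of Prdm1, which holds both TGANTCA and GTAAACA, and of Ranbp17, which leads the set by fold. Each is given 5′ to 3′ on the strand of the gene, from GRCr8, with every match to one of the 4 motifs in capitals. The windows lie at chr15:86754382-86754681, plus strand (Scel), chr2:180256523-180256822, minus strand (Loricrin), chr2:181786859-181787158, plus strand (Tchh), chr1:15361534-15361833, plus strand (Perp), chr20:49564039-49564338, minus strand (Prdm1) and chr10:18606998-18607297, minus strand (Ranbp17).
Scel: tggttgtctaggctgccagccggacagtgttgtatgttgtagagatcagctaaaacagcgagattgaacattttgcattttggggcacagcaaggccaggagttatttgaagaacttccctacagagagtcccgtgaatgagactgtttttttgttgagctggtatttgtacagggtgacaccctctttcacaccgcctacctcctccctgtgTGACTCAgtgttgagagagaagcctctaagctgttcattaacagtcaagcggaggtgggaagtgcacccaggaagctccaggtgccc
Loricrin: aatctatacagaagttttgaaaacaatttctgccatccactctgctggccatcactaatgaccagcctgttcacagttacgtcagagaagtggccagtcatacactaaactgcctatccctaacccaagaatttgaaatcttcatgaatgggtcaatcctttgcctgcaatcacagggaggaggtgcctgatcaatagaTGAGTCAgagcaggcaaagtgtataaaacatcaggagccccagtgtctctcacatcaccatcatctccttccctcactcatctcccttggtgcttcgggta
Tchh: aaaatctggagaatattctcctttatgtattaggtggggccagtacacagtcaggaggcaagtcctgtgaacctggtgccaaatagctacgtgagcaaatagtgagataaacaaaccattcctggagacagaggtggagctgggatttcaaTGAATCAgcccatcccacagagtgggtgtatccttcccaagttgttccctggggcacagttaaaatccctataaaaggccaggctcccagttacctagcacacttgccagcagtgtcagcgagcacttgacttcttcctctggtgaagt
Perp: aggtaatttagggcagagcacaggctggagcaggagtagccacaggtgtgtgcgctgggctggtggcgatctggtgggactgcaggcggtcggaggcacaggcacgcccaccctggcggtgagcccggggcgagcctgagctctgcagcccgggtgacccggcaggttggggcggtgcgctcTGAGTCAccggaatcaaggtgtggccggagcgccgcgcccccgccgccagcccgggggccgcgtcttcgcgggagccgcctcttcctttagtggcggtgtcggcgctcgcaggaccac
Prdm1: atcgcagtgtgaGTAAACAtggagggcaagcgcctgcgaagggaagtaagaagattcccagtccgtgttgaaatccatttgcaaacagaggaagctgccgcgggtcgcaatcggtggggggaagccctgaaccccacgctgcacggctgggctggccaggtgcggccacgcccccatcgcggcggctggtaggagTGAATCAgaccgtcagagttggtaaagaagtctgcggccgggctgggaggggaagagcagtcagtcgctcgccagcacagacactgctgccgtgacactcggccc
Ranbp17: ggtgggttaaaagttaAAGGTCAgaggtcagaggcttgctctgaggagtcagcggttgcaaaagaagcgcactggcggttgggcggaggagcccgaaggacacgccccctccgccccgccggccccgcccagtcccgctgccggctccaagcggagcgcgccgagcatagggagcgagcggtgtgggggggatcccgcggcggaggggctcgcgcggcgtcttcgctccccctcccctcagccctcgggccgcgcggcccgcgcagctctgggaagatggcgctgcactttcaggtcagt

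The letters TGANTCA began 37 bases before the annotated start of Scel, 51 before that of Loricrin and 55 before that of Prdm1. They began 68 bases before the start of Perp and 99 before that of Tchh. The open base was C in Scel and G in Perp and Loricrin, as in the AP-1 site TGA(C/G)TCA. It was A in Tchh and Prdm1, which is outside that site. The forkhead letters of Prdm1 began 238 bases before its start, and the AAGGTCA of Ranbp17 234 bases before.

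Transcription factors and cofactors made up 13 members, of which 5 were below the floor on all other arrays. The HMG-box factor Tox3 had 3536 on FOXOA3-mDBD FSH and the T-box factor Eomes 522, both below the floor elsewhere, like Foxq1, the circadian repressor Bhlhe41 and the zinc finger gene Zfp790. Prdm1, the repressor known as Blimp in lymphocytes, had 4564 on FOXOA3-mDBD FSH, 538 on FOXOA3 FSH, 60.9 on GFP FSH and 29.0 on GFP vehicle. It was the factor with the clearest middle value on FOXOA3 FSH, at least 5.35-fold above both GFP arrays. In this group 4 members were above the floor on every array. Paxbp1, a partner of PAX proteins, had 3794 on FOXOA3-mDBD FSH, 471 on FOXOA3 FSH, 583 on GFP FSH and 269 on GFP vehicle. Zcchc12, a coactivator in BMP signalling, had 2791 on FOXOA3-mDBD FSH, 526 on FOXOA3 FSH, 497 on GFP FSH and 445 on GFP vehicle. Zfp715, a zinc finger gene, had 6767 on FOXOA3-mDBD FSH, 1289 on FOXOA3 FSH, 1230.1 on GFP FSH and 892 on GFP vehicle. FOXOA3 FSH and GFP FSH were nearly level for Zcchc12 and Zfp715, and GFP FSH was second for Paxbp1. Bend4, a BEN domain protein, had 4145 on FOXOA3-mDBD FSH, 790.0 on FOXOA3 FSH, 602 on GFP FSH and 642 on GFP vehicle. The homeobox factor Msx1, the MYC antagonist Mxd1 and the zinc finger factor Mecom were dim elsewhere and had smallest folds of 6.27, 6.07 and 8.23.

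Secreted proteins formed a group of 12 with the brightest member of the set. Spp1, which encodes the matrix and cytokine-like protein osteopontin, had 22972 on FOXOA3-mDBD FSH, 721 on FOXOA3 FSH, 575 on GFP FSH and 452 on GFP vehicle, so it was 31.9-fold brighter with FOXOA3-mDBD than with FOXOA3. Fgl2, a fibrinogen-like protein, had 11924 on FOXOA3-mDBD FSH, 1461 on FOXOA3 FSH, 250.1 on GFP FSH and 729 on GFP vehicle. Its 4 arrays were all apart from each other, with FOXOA3 FSH second and GFP FSH lowest. Cbln1, an organiser of synapses, had 8578 on FOXOA3-mDBD FSH, 253 on FOXOA3 FSH, 129 on GFP FSH and 978 on GFP vehicle. There the second array was GFP vehicle, and neither FSH-treated array with GFP or FOXOA3 came near it. Fgf9, a growth factor of the gonad among other tissues, had 4465 on FOXOA3-mDBD FSH, 359 on FOXOA3 FSH, 186 on GFP FSH and 73.2 on GFP vehicle. Neuropeptide Y (Npy) had 2426 on FOXOA3-mDBD FSH, 162 on FOXOA3 FSH, 114 on GFP FSH and 100.1 on GFP vehicle. Both were dim on GFP vehicle. Of the others, 6 were below the floor on all other arrays, namely the airway protein Bpifb1, the Frizzled ligand norrin (Ndp), Bmp3, the kidney protein uromodulin (Umod), the basement membrane protein Nid2 and the chemoattractant Gpr15lg, with signals on FOXOA3-mDBD FSH between 584 and 1039. Esm1, the proteoglycan endocan, had 572 on FOXOA3-mDBD FSH, 111 on FOXOA3 FSH, 16.4 on GFP FSH and 29.1 on GFP vehicle.

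Receptors numbered 8. Cxcr4, the receptor of the chemokine CXCL12, had 8566 on FOXOA3-mDBD FSH, 696 on FOXOA3 FSH, 313 on GFP FSH and 76.8 on GFP vehicle. FOXOA3 FSH was second and GFP vehicle, below the floor, last. The ephrin receptors Epha4 and Epha3 guide axons and cell sorting. Epha4 had 6955 on FOXOA3-mDBD FSH, 574 on FOXOA3 FSH, 28.3 on GFP FSH and 288 on GFP vehicle. Epha3 had 6752 on FOXOA3-mDBD FSH, 959 on FOXOA3 FSH, 45.5 on GFP FSH and 12.3 on GFP vehicle. In both, FOXOA3 FSH was second and GFP FSH below the floor, but Epha4 was above the floor on GFP vehicle and Epha3 was not. Ccrl2, an atypical receptor that binds chemerin, had 2618 on FOXOA3-mDBD FSH, 231 on FOXOA3 FSH, 509 on GFP FSH and 110.0 on GFP vehicle, with GFP FSH second. The dopamine receptor Drd4 (3745 on FOXOA3-mDBD FSH), the G protein-coupled receptor Gpr83 (3229.6) and the somatostatin receptor Sstr1 (751) were below the floor elsewhere, and Gfra3, a receptor of the GDNF family ligand artemin, had 144 on FOXOA3 FSH against 918 on FOXOA3-mDBD FSH.

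Ion channel genes numbered 5, and 3 were below the floor elsewhere. These were the sodium channel Scn1a with 4024 on FOXOA3-mDBD FSH, the GABA receptor subunit Gabra2 with 724 and Nalf1, an auxiliary factor of the sodium leak channel, with 571. The related channel gene Scn7a had 1805 on FOXOA3-mDBD FSH, 101 on FOXOA3 FSH, 22.5 on GFP FSH and 145 on GFP vehicle. Kcnk2, a background potassium channel, had 3416 on FOXOA3-mDBD FSH, 189.6 on FOXOA3 FSH, 159.8 on GFP FSH and 678 on GFP vehicle. In both of these GFP vehicle was the second array and no FSH-treated array with FOXOA3 or GFP reached it.

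Genes of the Ly6 family, small membrane-anchored proteins, supplied 3 members, and all had FOXOA3 FSH as the second array. Ly6l had 4015 on FOXOA3-mDBD FSH, 137 on FOXOA3 FSH, 87.4 on GFP FSH and 59.3 on GFP vehicle. Ly6h had 2346 on FOXOA3-mDBD FSH, 176 on FOXOA3 FSH, 62.9 on GFP FSH and 112 on GFP vehicle. Ly6al had 1317 on FOXOA3-mDBD FSH, 204 on FOXOA3 FSH, 54.7 on GFP FSH and 81.9 on GFP vehicle. The signals on GFP arrays were below the floor but for Ly6h on GFP vehicle. The family members are similar in sequence, and shared hybridisation between their probe sets was not tested.

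Adhesion and membrane organisation contributed 6 members. Pcdh20, a protocadherin, had 9005 on FOXOA3-mDBD FSH, 1422 on FOXOA3 FSH, 74.5 on GFP FSH and 312 on GFP vehicle, with the widest gap between FOXOA3 FSH and GFP FSH in the set, at least 14.1-fold. Pcdh10, a second protocadherin, had 1787 on FOXOA3-mDBD FSH, 313 on FOXOA3 FSH, 219 on GFP FSH and 146 on GFP vehicle. Chondrolectin (Chodl), a lectin-type membrane protein, had 6796 on FOXOA3-mDBD FSH, 795 on FOXOA3 FSH, 58.9 on GFP FSH and 279 on GFP vehicle. In all 3 of these genes FOXOA3 FSH was second. Cavin2, which shapes caveolae, had 4254 on FOXOA3-mDBD FSH, 279 on FOXOA3 FSH, 361 on GFP FSH and 536 on GFP vehicle, with FOXOA3 FSH the lowest array. The tetraspanin Tspan33 had 4056 on FOXOA3-mDBD FSH, 237 on FOXOA3 FSH, 133 on GFP FSH and 77.5 on GFP vehicle, and the raftlin Rftn2 was below the floor everywhere but on FOXOA3-mDBD FSH, at 1152.

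Genes of nuclear and vesicle transport numbered 9, led by Ranbp17. Exoc6, a subunit of the exocyst that tethers secretory vesicles, had 10594 on FOXOA3-mDBD FSH, 518 on FOXOA3 FSH, 185 on GFP FSH and 255 on GFP vehicle. Cadps2, which primes dense-core vesicles, had 5741 on FOXOA3-mDBD FSH, 1097 on FOXOA3 FSH, 506 on GFP FSH and 643 on GFP vehicle. The linker of vesicles to microtubules Hook1 had 2441 on FOXOA3-mDBD FSH, 116 on FOXOA3 FSH, 255 on GFP FSH and 305 on GFP vehicle. Exoc6 and Cadps2 had FOXOA3 FSH second, whereas Hook1 had it lowest of the 4. Bbs9, a subunit of the cilium-related BBSome, had 1759 on FOXOA3-mDBD FSH, 331 on FOXOA3 FSH, 239.9 on GFP FSH and 324 on GFP vehicle. The syntaxin Stx11 had 2409 on FOXOA3-mDBD FSH, 242 on FOXOA3 FSH, 70.5 on GFP FSH and 146 on GFP vehicle. The proton pump subunit Atp6v1c2 (531 on FOXOA3-mDBD FSH), the scaffold protein Grip2 (683) and the liprin Ppfibp2 (583) were among the dimmest of the set.

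Signalling regulators numbered 8. Rgs4, which shortens G protein signals, had 2352 on FOXOA3-mDBD FSH and was below the floor elsewhere, as were the phosphatase Ptprr (1295), the GTPase Rab15 (912) and Elmod1 (629.5), a regulator of Arf GTPases. The other 4 were above the floor everywhere. Rassf8, a Ras association domain protein, had 5981 on FOXOA3-mDBD FSH, 719 on FOXOA3 FSH, 795 on GFP FSH and 939 on GFP vehicle. Glomulin (Glmn), an inhibitor of cullin ubiquitin ligases, had 3756 on FOXOA3-mDBD FSH, 432 on FOXOA3 FSH, 479.6 on GFP FSH and 533 on GFP vehicle. Both were slightly lower on FOXOA3 FSH than on either GFP array. N4bp1, a partner of the ubiquitin ligase Nedd4, had 2517 on FOXOA3-mDBD FSH, 366 on FOXOA3 FSH, 299 on GFP FSH and 292 on GFP vehicle. Sgsm3, which contains a Rab GTPase-activating domain, had 1723 on FOXOA3-mDBD FSH, 244 on FOXOA3 FSH, 235 on GFP FSH and 183 on GFP vehicle. For both of these, FOXOA3 FSH was second and GFP vehicle lowest.

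Cytoskeletal genes numbered 5. Lima1, an actin-bundling protein, had 3204 on FOXOA3-mDBD FSH, 291 on FOXOA3 FSH, 177 on GFP FSH and 545 on GFP vehicle. The neurofilament Nefm had 1821 on FOXOA3-mDBD FSH, 239.6 on FOXOA3 FSH, 183 on GFP FSH and 117 on GFP vehicle. Filip1, a partner of filamin, had 2946 on FOXOA3-mDBD FSH, 358 on FOXOA3 FSH, 481 on GFP FSH and 157 on GFP vehicle. The second array was a different one for each of these 3 genes: GFP vehicle, FOXOA3 FSH and GFP FSH. Smtnl2, a smoothelin-like protein, and the actin-associated Gas2 were below the floor elsewhere, at 2253 and 1088 on FOXOA3-mDBD FSH.

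Enzymes of metabolism and glycosylation numbered 8. Dhrs7, a short-chain dehydrogenase, had 19489.7 on FOXOA3-mDBD FSH, 2807 on FOXOA3 FSH, 1730.1 on GFP FSH and 2087 on GFP vehicle. Microsomal epoxide hydrolase (Ephx1), which detoxifies epoxides, had 9033 on FOXOA3-mDBD FSH, 1253 on FOXOA3 FSH, 1735 on GFP FSH and 1497 on GFP vehicle. These genes were well expressed on every array, and their smallest folds were 6.94 and 5.21. Txndc16, a thioredoxin domain protein, had 3369.8 on FOXOA3-mDBD FSH, 227 on FOXOA3 FSH, 397 on GFP FSH and 405 on GFP vehicle. The mitochondrial NAD kinase Nadk2 had 2302 on FOXOA3-mDBD FSH, 218 on FOXOA3 FSH, 393 on GFP FSH and 306 on GFP vehicle. FOXOA3 FSH was the lowest array for Txndc16 and Nadk2. Adenosine deaminase (Ada) had 1197 on FOXOA3-mDBD FSH, 175 on FOXOA3 FSH, 160.0 on GFP FSH and 154 on GFP vehicle, level on the other 3 arrays. The glycosyltransferases Gcnt4 and Galnt18 had 1986 and 1684 on FOXOA3-mDBD FSH with smallest folds of 19.8 and 15.3, and the phospholipid-modifying Plaat1 was the dimmest of the group at 616.

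A group of 10 members serve transcription, RNA handling, cell division or protein turnover, and 7 of them were above the floor on every array. Elp2, a subunit of the Elongator complex, had 18095 on FOXOA3-mDBD FSH, 3254 on FOXOA3 FSH, 3242 on GFP FSH and 2356 on GFP vehicle. Cdk7, the kinase of the general factor TFIIH and activator of cell cycle kinases, had 12846 on FOXOA3-mDBD FSH, 2243 on FOXOA3 FSH, 2358 on GFP FSH and 2352 on GFP vehicle. Atg101, which starts autophagy, had 9239 on FOXOA3-mDBD FSH, 1449 on FOXOA3 FSH, 1107 on GFP FSH and 1158 on GFP vehicle. Signals on the other 3 arrays lay close together for Cdk7, and the smallest folds of these broadly expressed genes were 5.56, 5.45 and 6.38. Cpeb1, which controls polyadenylation of maternal mRNAs in oocytes, had 4327 on FOXOA3-mDBD FSH, 279.6 on FOXOA3 FSH, 247 on GFP FSH and 186 on GFP vehicle. Ddx52, an RNA helicase, had 1603 on FOXOA3-mDBD FSH, 267 on FOXOA3 FSH, 209 on GFP FSH and 189 on GFP vehicle. Hspa4l, a heat shock protein, had 1594 on FOXOA3-mDBD FSH, 286 on FOXOA3 FSH, 178 on GFP FSH and 173 on GFP vehicle. These 3 genes kept the same order, with FOXOA3 FSH second and GFP vehicle lowest. Ska3, which couples kinetochores to spindle microtubules, had 970.3 on FOXOA3-mDBD FSH, 149.5 on FOXOA3 FSH, 180.2 on GFP FSH and 128 on GFP vehicle. Parpbp, a regulator of recombination, and Tent5c, a poly(A) polymerase, had GFP FSH as second array, with 1369 and 3546 on FOXOA3-mDBD FSH. Ubd, the ubiquitin-like modifier FAT10, had 876 on FOXOA3-mDBD FSH, 131 on FOXOA3 FSH and signals below the floor on both GFP arrays.

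The remaining 20 members have other or less certain roles. Kiaa0040 had 4684 on FOXOA3-mDBD FSH, 462 on FOXOA3 FSH, 132 on GFP FSH and 255 on GFP vehicle. Nrip3 had 3116 on FOXOA3-mDBD FSH, 273 on FOXOA3 FSH, 146 on GFP FSH and 275 on GFP vehicle. In Kiaa0040 FOXOA3 FSH was second, and in Nrip3 FOXOA3 FSH and GFP vehicle were equal within a few units. Gdap2 had 5256 on FOXOA3-mDBD FSH, 889 on FOXOA3 FSH, 762 on GFP FSH and 709 on GFP vehicle. Fam53a had 4269 on FOXOA3-mDBD FSH, 722 on FOXOA3 FSH, 571 on GFP FSH and 458 on GFP vehicle. Both had the order FOXOA3 FSH, GFP FSH, GFP vehicle behind FOXOA3-mDBD FSH. Fry, a large protein of cell shape and polarity, had 1574 on FOXOA3-mDBD FSH, 245 on FOXOA3 FSH, 116 on GFP FSH and 290.0 on GFP vehicle. Ccdc186 had 884 on FOXOA3-mDBD FSH, 126 on FOXOA3 FSH, 155 on GFP FSH and 132 on GFP vehicle. Kctd14 had 1078 on FOXOA3-mDBD FSH, 204 on FOXOA3 FSH, 114 on GFP FSH and 109 on GFP vehicle. These were close to the floor on 1 or more arrays. Slfn4, an interferon-inducible member of the Schlafen family in the mouse, had 5489 on FOXOA3-mDBD FSH, 285 on FOXOA3 FSH, 275 on GFP FSH and 17.4 on GFP vehicle. Of the other 12, Klhl14, Ypel4, Prkcel1, Ctxn2, Dipk1a, Lhfpl3, Poteml2, Evi2a and LOC100911719 were below the floor except on FOXOA3-mDBD FSH, where they ran from 534 for Evi2a to 3114 for LOC100911719, while Otulinl, Iqub and LOC102555644 were above it on at least 1 other array.

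The rule held each of the other 3 arrays 5-fold or more below FOXOA3-mDBD FSH, but it did not set their order among each other. The shares of all genes given beside the members hold genes of any brightness. FOXOA3 FSH was also the array with the highest median signal, 116.25, against 88.2 on GFP FSH and 98.35 on GFP vehicle. Counts of the brightest array, and of members 2-fold above both GFP arrays, were not taken after centring. Of the 75 members above the floor on at least 1 of the other 3 arrays, FOXOA3 FSH was the brightest of the 3 for 51, GFP FSH for 12 and GFP vehicle for 12. Of the 10090 genes above the floor on any of the 3 arrays, FOXOA3 FSH was the brightest for 33.2%, GFP FSH for 37.6% and GFP vehicle for 29.2%. In FOXOA3 FSH against GFP FSH, 17 of 75 measured members were 2-fold or more higher and 3 lower (Parpbp, Ccrl2 and Hook1), where 11.1% of 9941 measured genes were higher and 6.99% lower. The median log2 ratio of the members was 0.39, beside 0.04 for all measured genes. With each array centred on its median, 13 of 70 measured members were higher and 7 lower, beside 6.13% of all measured genes higher. With quantile normalization 15 of 70 were higher and 6 lower, beside 9.36% of all measured genes higher. The 17 were Pcdh20, Epha3, Chodl, Fgl2, Epha4, Prdm1, Scel, Loricrin, Shroom3, Kiaa0040, Otulinl, Exoc6, Stx11, Cxcr4, Cadps2, Fry and Ly6al.

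FOXOA3 FSH against GFP vehicle, which uses the same FOXOA3 FSH array, gave 20 of 74 members higher and 3 lower (Cbln1, Kcnk2 and Hook1), beside 5.32% of 9904 genes higher and 4.01% lower. With centring 12 of 70 were higher and 7 lower, beside 3.52% of all measured genes higher. The median log2 ratio was 0.48 for the members and 0.01 for all genes. In 12 members FOXOA3 FSH was 2-fold or more above both GFP arrays, as it was for 2.94% of the 10090 genes above the floor on any of the 3 arrays. These 12 were Scel, Loricrin, Shroom3, Prdm1, Exoc6, Cxcr4, Otulinl, Chodl, Fgl2, Epha3, Ly6al and Pcdh20, and in each the signal with FOXOA3-mDBD was a further 5-fold or more above that with FOXOA3, as the rule required.

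The hormone comparison looked different. In GFP FSH against GFP vehicle, 6 of 60 measured members were 2-fold or more higher with FSH (Ccrl2, Tent5c, Cxcr4, Filip1, Slfn4 and Paxbp1) and 8 lower (Cbln1, Kcnk2, Pcdh20, Lima1, Fgl2, Epha4, Chodl and Fry). Over 9578 genes the shares were 6.84% higher and 11.1% lower, close to those of the members. The members' median log2 ratio was 0.02 and that of all genes was -0.00. Fgl2, Epha4, Pcdh20, Chodl and Fry were lower with FSH in the GFP cells and higher with FOXOA3 than with GFP in FSH-treated cells, comparisons that share the GFP FSH array.

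**Figure D3:**
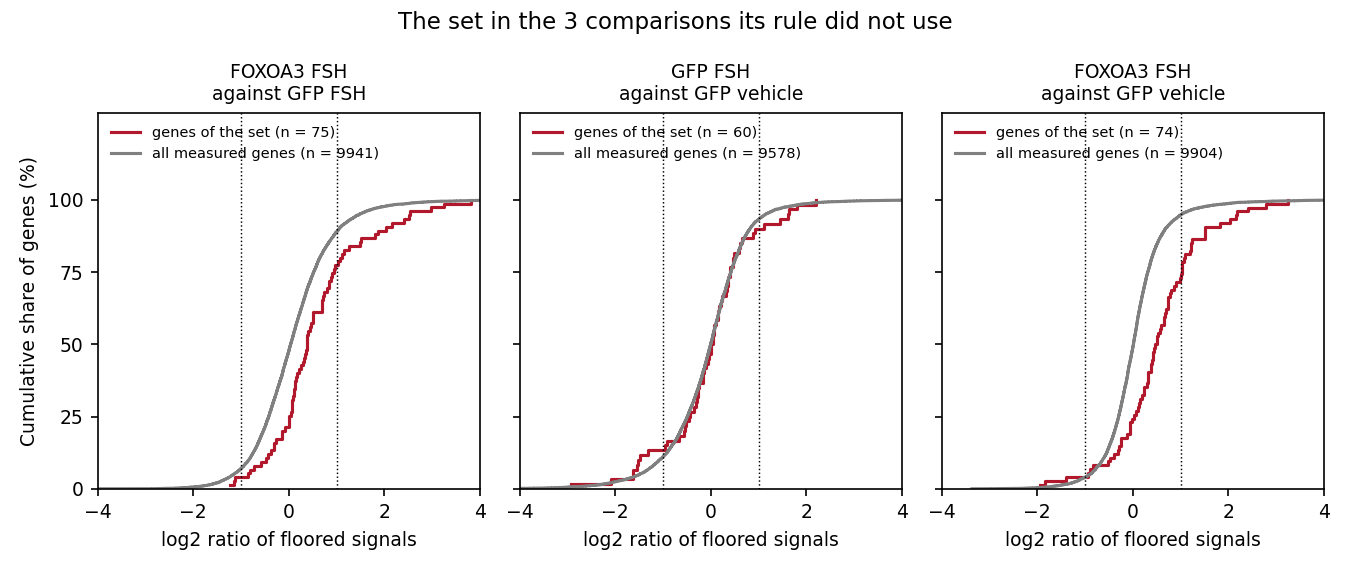
Cumulative share of genes (%) by log2 ratio of floored signals, red for the measured members and grey for all measured genes, in FOXOA3 FSH against GFP FSH, GFP FSH against GFP vehicle and FOXOA3 FSH against GFP vehicle, with dotted lines at 2-fold. The red curve lies to the right of the grey one in both panels with FOXOA3 FSH (member medians 0.39 and 0.48) and overlaps it in the hormone comparison (0.02).

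Other probe sets of the same genes gave a second reading of the same RNA on the same arrays, through probe sets the rule did not use; the arrays are those of the rule, so the reading is a description. For 38 members there were 57 such probe sets, of which 41 were above the floor on FOXOA3-mDBD FSH. Of these 41, 32 were 2-fold or more above each other array and 23 of them 5-fold or more, beside 10.9% of all 2863 second-choice probe sets above the floor on that array at 2-fold (4.72% of all 6609). The 32 probe sets belonged to 22 genes. The ephrin receptor Epha4 was read again at 6796 on FOXOA3-mDBD FSH, 451 on FOXOA3 FSH, 54.7 on GFP FSH and 228 on GFP vehicle. A further probe set of Cxcr4 read 7559 on FOXOA3-mDBD FSH, 574 on FOXOA3 FSH, 191 on GFP FSH and 51.1 on GFP vehicle. One of Foxq1 read 757 on FOXOA3-mDBD FSH, 70.5 on FOXOA3 FSH, 66.3 on GFP FSH and 31.8 on GFP vehicle. The same order of arrays came back for Epha4 and Cxcr4, and the second Foxq1 reading was dimmer and again above the floor on FOXOA3-mDBD FSH only. The Cxcr4 probe sets are among those counted below as named for shared probes. Scel and Ranbp17 had no other probe set.

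For 6 genes the other probe sets above the floor on FOXOA3-mDBD FSH did not reach 2-fold: Ccdc186, Eomes, Mecom, Plaat1, Rab15 and Sgsm3. N4bp1, Glmn and Tspan33 had probe sets on either side, with 1 of Tspan33 at 159 on FOXOA3-mDBD FSH, 211 on FOXOA3 FSH, 15.9 on GFP FSH and 66.4 on GFP vehicle, brighter on FOXOA3 FSH than on FOXOA3-mDBD FSH. The remaining 16 probe sets were at or below the floor on FOXOA3-mDBD FSH and did not repeat the signal of the brightest probe set there. Of the 38 members, 28 had another probe set above the floor on that array. Slfn4, Kcnk2, Lima1, Shroom3, Fry, Sstr1, Grip2, Nalf1, Prkcel1 and Ndp had none. For Slfn4 the other probe set read 6.1 on FOXOA3-mDBD FSH, against 5489 for the brightest one. Whether these probe sets can read their genes was not tested.

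**Figure D4:**
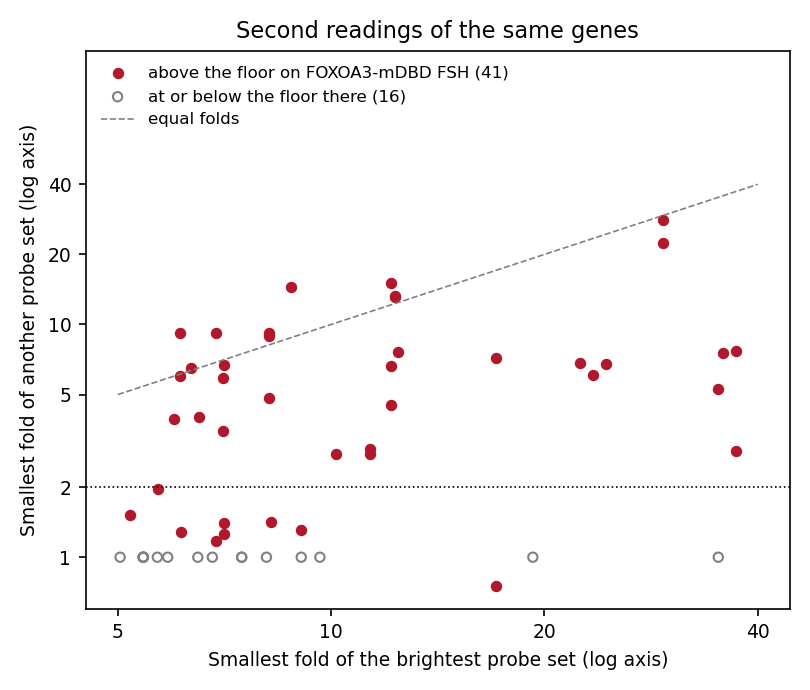
Smallest fold (FOXOA3-mDBD FSH over the brightest other array, log axes) of another probe set against that of the brightest probe set of the same gene, for 57 probe sets of 38 members. Red points are the 41 above the floor on FOXOA3-mDBD FSH, 32 of them above the dotted 2-fold line. Grey rings at 1 are the 16 at or below the floor on FOXOA3-mDBD FSH.

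Because some members are known from skin, nerve or secretory epithelia, lists of markers of such cells were read on all arrays, where 12.5% of 9748 genes were 2-fold higher and 19.2% lower in FOXOA3-mDBD FSH against GFP FSH (median log2 ratio of all genes -0.16). Of 22 epithelial keratin and junction genes, 10 were above the floor on FOXOA3-mDBD FSH and 6 on GFP FSH, and of the 10 measured in FOXOA3-mDBD FSH against GFP FSH 4 were higher and 1 lower, with a median log2 ratio of 0.59. Their summed signal was 6257 on FOXOA3-mDBD FSH, against 4515 on FOXOA3 FSH, 4264 on GFP FSH and 7498 on GFP vehicle. Here and below, sums of lists were taken without the floor, so they also hold signals below it. Cdh1, Krt5, Krt7, Krt14, Krt15, Krt18, Krt19, Cldn3, Cldn7, Elf3, Pkp1 and Pkp3 were below the floor on FOXOA3-mDBD FSH. Cldn4, Dsc2, Dsg2, Dsp, Epcam, Esrp1, Grhl1, Jup, Krt8 and Krt17 were above it. Of these, the claudin Cldn4, the desmosomal Dsp and the epithelial regulators Grhl1 and Esrp1 were the 4 higher than on GFP FSH, and Jup was the 1 lower. Of 12 cornified envelope genes, Scel and Loricrin were higher and none lower among 7 measured (median 0.28), while involucrin (Ivl), Tgm1, Tgm3, Ppl, Cnfn and the small proline-rich genes Sprr1a and Sprr1b were below the floor on that array. Anxa1, S100a10 and Evpl were above it and under 2-fold. Their summed signal was 39884 on FOXOA3-mDBD FSH, against 24155 on FOXOA3 FSH, 18977 on GFP FSH and 25332 on GFP vehicle. That sum holds Scel and Loricrin, which the rule chose, and without them it was 20577 on FOXOA3-mDBD FSH, against 23289 on FOXOA3 FSH, 18949 on GFP FSH and 25296 on GFP vehicle. The sum of 8 surface epithelium and mesothelium markers was 864 on FOXOA3-mDBD FSH, against 1081 on FOXOA3 FSH, 988 on GFP FSH and 1694 on GFP vehicle. Of those 8 markers 3 were measured, 0 higher and 1 lower (median -0.47), with Msln, Calb2, Krt7, Krt19 and Cdh1 below the floor on FOXOA3-mDBD FSH and Wt1, Upk1b and Lrrn4 above it.

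Of 13 neuronal and glial genes, 5 were above the floor on FOXOA3-mDBD FSH and 4 on GFP FSH. Of 6 measured, Nefm, a member, Nefl and Stmn2 were higher, and Map2 and Tubb3 lower (median 0.38). All 5 were above the floor on FOXOA3-mDBD FSH, and Snap25, Syt1, Rbfox3, Gap43, Gfap, Mbp, S100b and Sox10 were below it. The summed signal was 3719 on FOXOA3-mDBD FSH, against 2790 on FOXOA3 FSH, 3814 on GFP FSH and 2976 on GFP vehicle. Without Nefm, which the rule chose, it was 1898 on FOXOA3-mDBD FSH, against 2550 on FOXOA3 FSH, 3630 on GFP FSH and 2859 on GFP vehicle. Of 11 endothelial genes 1 of 3 measured was higher and 0 lower (median 0.94), with sums of 944 on FOXOA3-mDBD FSH, against 1045 on FOXOA3 FSH, 592 on GFP FSH and 936 on GFP vehicle, with Kdr, Tek and Egfl7 above the floor on FOXOA3-mDBD FSH and the other 8, Pecam1 and Vwf among them, below it. Of 12 leukocyte genes 0 of 3 measured were 2-fold apart (median 0.03). Their sums were 1999 on FOXOA3-mDBD FSH, against 4565 on FOXOA3 FSH, 1799 on GFP FSH and 3100 on GFP vehicle. Without Cd14 the leukocyte sums were 987 on FOXOA3-mDBD FSH, against 1988 on FOXOA3 FSH, 1073 on GFP FSH and 933 on GFP vehicle. Cd14, Lyz2 and Csf1r were above the floor on FOXOA3-mDBD FSH, and the other 9, Ptprc, Cd68 and Cd3e among them, below it. Of 6 oocyte genes 0 of 3 measured were 2-fold apart (median 0.27), with sums of 1255 on FOXOA3-mDBD FSH, against 785 on FOXOA3 FSH, 1070 on GFP FSH and 456 on GFP vehicle, with Gdf9, Zp2 and Zp3 above the floor on FOXOA3-mDBD FSH and Bmp15, Zp1 and Sohlh1 below it. Of 18 theca, stroma and smooth muscle genes 1 of 8 measured was higher and 3 lower (median -0.53), with sums of 17064 on FOXOA3-mDBD FSH, against 39496 on FOXOA3 FSH, 15893 on GFP FSH and 32662 on GFP vehicle, with Acta2, Aspn, Dcn, Fn1, Ogn and Tagln above the floor on FOXOA3-mDBD FSH and the other 12, the theca genes Cyp17a1 and Insl3 among them, below it. The gene higher was asporin (Aspn), a small matrix proteoglycan, with 11514 on FOXOA3-mDBD FSH, 3305 on FOXOA3 FSH, 22.4 on GFP FSH and 1099 on GFP vehicle. It was under 5-fold above FOXOA3 FSH and so no member. Without Aspn the sums were 5550 on FOXOA3-mDBD FSH, against 36191 on FOXOA3 FSH, 15871 on GFP FSH and 31563 on GFP vehicle.

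Most granulosa cell markers were 2-fold or more lower with either FOXO1 vector than on GFP FSH. Of 15 on the array, 13 were above the floor on FOXOA3-mDBD FSH, and 11 were 2-fold or more lower than on GFP FSH and 1 higher (median -1.88). In FOXOA3 FSH against GFP FSH 9 of 15 were lower and 0 higher (median -1.30). Their summed signal was 51940 on FOXOA3-mDBD FSH, against 64616 on FOXOA3 FSH, 142781 on GFP FSH and 55092 on GFP vehicle. Set against GFP vehicle, the markers on FOXOA3-mDBD FSH went both ways. Cyp19a1 had 275 on FOXOA3-mDBD FSH and 35.0 on GFP vehicle, and Inhbb had 3135 and 993. Foxl2 had 994 on FOXOA3-mDBD FSH and 5546 on GFP vehicle, and Gata4 had 358 and 1992. The part of the granulosa cell markers and of the other marker lists in the set was not tested.

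Lists of pathways and of relatives of the marker genes were read in the same way, in FOXOA3-mDBD FSH against GFP FSH unless stated. Of 23 forkhead genes 11 were measured, with a median log2 ratio of 0.32. Foxq1 and Foxp2 were the 2 higher, and Foxl2 and Foxo1 the 2 lower. Foxo1 had 961 on FOXOA3-mDBD FSH, 3834.5 on FOXOA3 FSH, 2862 on GFP FSH and 8149 on GFP vehicle. Signal of the FOXO1 vector was not told apart from that of the endogenous gene. In FOXOA3 FSH against GFP FSH 2 of 10 forkhead genes were higher and 0 lower (median 0.29). Of 29 importins, exportins and Ran cofactors 3 were higher, Ranbp17 among them, and 2 lower (median -0.14), against 1 and 1 with FOXOA3 (median 0.07). Notch pathway genes had 2 of 9 higher and 2 lower (median 0.09), and 2 of 12 higher and 2 lower with FOXOA3 (median 0.18). FOXO target genes had 7 of 24 higher and 5 lower (median 0.25), and 12 of 25 higher and 3 lower with FOXOA3 (median 0.89). No member was on the FOXO target list. Hey1, on the Notch list, passed the folds and was dropped by name.

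Interferon response genes had 15 of 26 higher and 0 lower with FOXOA3-mDBD (median 1.41), and 15 of 27 higher and 0 lower with FOXOA3 (median 1.20). The p53 and DNA damage list had 2 of 10 higher and 0 lower (median 0.67), and 5 of 11 higher and 0 lower with FOXOA3 (median 0.70). AP-1 and immediate-early genes had 7 of 18 higher and 2 lower (median 0.36), and 5 of 17 higher and 1 lower with FOXOA3 (median 0.63). The 7 were Atf3, Egr2, Klf6, Maff, Myc, Nr4a2 and Nr4a3, with no FOS or JUN gene among them, and the 2 lower were Fosl2 and Jund. All these comparisons with GFP FSH share that array, and both vectors were set against it.

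Members were found on 21 chromosomes, for the 110 that matched a RefSeq gene. Chromosome 1 held 14 of them, 0.78% of its genes on the array, and chromosome 14 held 9, or 1.95%, the highest of the 21 shares. Over all placed genes the share was 0.777%. Some members were neighbours among the genes on the array: Ly6al, Ly6l and Ly6h in a row on chromosome 7, Cbln1 beside N4bp1 on chromosome 19, Gdap2 beside Tent5c on chromosome 2, and Rassf8 beside Bhlhe41 on chromosome 4. Scn1a and Scn7a on chromosome 3 had 1 other such gene between them. Of these neighbours, Cbln1, N4bp1, Gdap2 and Rassf8 were above the floor on all 4 arrays, while Scn1a and Bhlhe41 were below it on all but FOXOA3-mDBD FSH. Farther apart, Cadps2 and Iqub on chromosome 4 had 2 genes between them. Ska3 and Fgf9 on chromosome 15 had 3, and Dipk1a and Glmn on chromosome 14 had 5. How often genes picked without regard to place would be such neighbours was not counted.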

How the data were processed

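Expression was measured on 4 rat whole-genome arrays, 1 per group. The authors deposited linear microarray intensity values for each probe set, made with MAS5 per the submitters' processing notes, which name no version. MAS5 subtracts mismatch probe signal, and ratios of dim probe sets are noisy. Of 31099 probe sets, 57 were controls, 20826 had exactly 1 gene symbol in the platform annotation, 436 several and 9780 none. Symbols matched current RefSeq genes by gene ID for 110 of 113 members.

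Signals were floored at 100.5 and compared as log2 ratios. Single signals and summed signals of lists are given without the floor. A gene was measured in a comparison if either signal was above the floor, a fold against a signal at the floor is a lower bound ("at least"), and genes were counted at 2-fold. With 1 array per group there are no replicates and no tests, and precision is limited by the number of arrays. The fold cut of the rule was tested on simulated data, with raised genes drawn only from those above the floor. The choice of probe set, the dropping by name and the later steps were not part of that test. The members, roles and the 16 lists (274 of 303 different genes on the array) were chosen with earlier results of these data known. All members are named. Signals on all arrays are given for Scel, Ranbp17, Foxq1, the 10 other brightest members, members above the floor on all 4 arrays and those at the threshold inside the set; the 3 genes just outside it are also given; further members given in full were chosen after their values were seen. Alternatives were other floors (25th and 75th percentile), quantile normalization, centring, the mean of all probe sets, thresholds of 3 and 10 and, added after seeing the data, leaving out probe sets named for shared probes. Python 3.11.15, numpy 2.4.6, pandas 2.3.3 and matplotlib 3.10.9 were used.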

Additional observations from a re-analysis of the deposited data

Results flagged for a closer look

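Of the 10216 rat probe sets without exactly 1 gene symbol, which no comparison above used, 58 were at least 5-fold brighter on FOXOA3-mDBD FSH than on each other array. The same folds picked 2 probe sets on FOXOA3 FSH, 8 on GFP FSH and 3 on GFP vehicle. The signals of the 58 on FOXOA3-mDBD FSH ran from 505 to 16126 with a median of 1335. These probe sets were not analysed further here because they name no single gene.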

How the results depend on the processing

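The set held 51 genes with the floor at the 75th percentile (a signal of 542.5), all of them among the 113, 155 with it at the 25th percentile, and 258 or 36 at a fold threshold of 3 or 10. Under quantile normalization it held 118 (107 shared with the 113), under centring 115 (104 shared), with the mean of all probe sets 102 (101 shared) and without probe sets named for shared probes 108, all shared. Members below the floor on the other 3 arrays numbered 24 with the lower floor, against 38, and 29 to 47 under the other floor, scalings and probe set choices. The log2 ratio of FOXOA3-mDBD FSH over GFP FSH, whose sign the rule fixed, moved by over 1.5-fold for 93 of the 113 with the 75th percentile floor, where 80 were still 2-fold higher, and for 53 with the 25th. It moved so for 22 with the mean of all probe sets, 2 with centring and 1 with quantile normalization; without probe sets named for shared probes it moved for 2 of 108. Centring moved the median of all genes in FOXOA3 FSH against GFP FSH to -0.35, against 0.04 without it, in FOXOA3 FSH against GFP vehicle to -0.23 and in GFP FSH against GFP vehicle to 0.15. For FOXOA3 FSH against GFP FSH the median of the members was then 0.09, with 13 members higher and 7 lower, and stood 0.43 above that of all genes, against 0.35 without centring. For FOXOA3 FSH against GFP vehicle that gap ran from 0.38 to 0.60 over all settings, and for GFP FSH against GFP vehicle from -0.05 to 0.14. With the 25th percentile floor 38 of 107 members were higher in FOXOA3 FSH against GFP FSH, beside 15.6% of all genes, and with the 75th 3 of 19, beside 6.64%. Dim signals limit the set: a fold against a signal at the floor is a bound, and with 1 array per group no left-out replicate could be tried. No paired analysis was possible because each group is a single array.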

Other observations

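Of the 10 genes left out of the set by name, 6 were solute carriers, and 3 of those belong to families that carry zinc or manganese. Slc30a10, a manganese exporter, had 2014 on FOXOA3-mDBD FSH, 5.4 on FOXOA3 FSH, 2.3 on GFP FSH and 26.1 on GFP vehicle, below the floor on every other array. The importers Slc39a6 and Slc39a8 had 12604 on FOXOA3-mDBD FSH, 1765 on FOXOA3 FSH, 1652 on GFP FSH and 1561 on GFP vehicle, and 7339 on FOXOA3-mDBD FSH, 1229 on FOXOA3 FSH, 489.5 on GFP FSH and 259 on GFP vehicle, in that order of genes. The phosphate carrier Slc20a2 and the bicarbonate carrier Slc4a4 had smallest folds of 6.34 and 8.77. Slc35d3, a member of the nucleotide sugar transporter family, was the dimmest carrier at 585.

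The matrix metalloprotease Mmp10 (531 on FOXOA3-mDBD FSH) and Adamtsl1 (1029.5) were also left out by name, with smallest folds of 5.28 and 6.59, the first a lower bound. Arhgap24, a Rac GTPase-activating protein, had 7036 on FOXOA3-mDBD FSH, 787 on FOXOA3 FSH, 59.6 on GFP FSH and 404 on GFP vehicle. Hey1, a target of Notch signalling, had 16138 on FOXOA3-mDBD FSH, 955 on FOXOA3 FSH, 144 on GFP FSH and 518 on GFP vehicle. In both, FOXOA3 FSH was the second array.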
